A study of Mus musculus with 6 samples.

Results

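The suppressor of cytokine signalling (SOCS) family comprises 8 genes, Cish and Socs1 to Socs7, and was examined in peripherally induced regulatory T (pTreg) cells that lacked or retained Blimp1, the transcriptional repressor encoded by Prdm1. Members were taken by gene symbol from the annotation of the array. The 8 genes have 15 of the 45281 probes, and 10 of these probes, at least 1 for each gene, lay above background on at least 2 of the 6 arrays. The cells were CD4+ Foxp3-GFP+ cells sorted after naive T cells of both genotypes had been transferred together into RAG1-/- mice, which make no T or B cells of their own but keep their myeloid and NK cells. The 3 CKO samples came from Prdm1 flox/flox CD4-Cre+ donors and the 3 Ctrl samples from Prdm1+/+ CD4-Cre+ donors, both carrying the Foxp3-GFP reporter, so that by the labels both genotypes carry Cre recombinase. CD4-Cre deletes in all T cells, and a difference can therefore have begun before the cells became Foxp3+. The donors also differed at Thy1 (Thy1.2 in CKO and Thy1.1 in Ctrl cells), which served to tell the transferred cells apart. One field of the labels has iTreg and another has peripheral Treg, and the letters P+I stand on replicates 2 and 3 while replicate 1 names no stimulus.

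SOCS proteins are feedback inhibitors of the JAK-STAT pathway. A cytokine receptor activates JAK kinases, these phosphorylate STAT factors, and STAT factors in turn induce SOCS genes. Each SOCS protein has a central SH2 domain, which binds phosphotyrosine, and a SOCS box at its C-terminus, which recruits elongins B and C and cullin 5 into a ubiquitin ligase. SOCS1 and SOCS3 also block the JAK kinase directly. In T cells, Cish and Socs2 are known as genes induced by IL-2 through STAT5, and Socs1 is needed to restrain IFNγ signalling in Treg cells.

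The promoters of Cish, Socs1 and Socs3 are shown because they carry the kinds of element through which cytokines act on this family. The sequences are from RefSeq on GRCm38.p6, and its promoter table, 250 bases before to 50 after each start, held 4 of the 8 members used here, Cish, Socs1, Socs3 and Socs4. Capitals mark matches to TTCNNNGAA, the palindromic STAT motif, in Cish (chr9:107296589-107296688, plus strand) and Socs3 (chr11:117969467-117969566, minus strand), and matches to AANNGAAA, the core motif of interferon regulatory factors, in Socs1 (chr16:10785557-10785656, minus strand).
Cish: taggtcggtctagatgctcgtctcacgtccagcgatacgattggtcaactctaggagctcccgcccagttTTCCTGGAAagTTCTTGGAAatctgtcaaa
Socs3: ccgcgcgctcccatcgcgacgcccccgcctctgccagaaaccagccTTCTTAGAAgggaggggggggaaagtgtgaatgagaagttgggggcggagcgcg
Socs1: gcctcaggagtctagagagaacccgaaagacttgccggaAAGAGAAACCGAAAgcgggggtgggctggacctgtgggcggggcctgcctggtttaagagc
Both strands were searched. Cish had 2 STAT motifs, TTCCTGGAA at the transcript start and TTCTTGGAA 11 bases past it, and Socs3 had 1, TTCTTAGAA, which begins 154 bases before the start. Of all 32851 promoters in the table, 8.30% hold this motif. The 2 matches in Socs1, AAGAGAAA and AACCGAAA, begin 81 and 75 bases before the start and overlap, Cish holds 1 more past the stretch shown, and 23.9% of all promoters hold this motif. AGNGAAAG, a core of the sequence that Blimp1 binds, was in none of the 4 promoters and in 8.63% of all. A match is a description of the sequence and no evidence of binding.

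Illumina MouseWG 6v2 bead arrays were used, and 9589 genes with a probe above background on at least 2 arrays were compared with limma. Background was 6.18 to 9.57 intensity units per array. Having 3 arrays in a group limits the precision of each value. In what follows, rose and fell are kept for genes with an adjusted p under 0.05 (Benjamini-Hochberg over all genes tested), and the thresholds of the methods are an unadjusted p under 0.05 together with a difference of 1.5-fold or more. Samples with one replicate number formed pairs, so the fit that blocks on the replicate number is given where it changes a call. Prdm1 itself had intensities of 561, 341 and 704 in CKO replicates 1, 2 and 3, against 18.9, 50.9 and 49.2 in Ctrl replicates. It rose (log2 fold change 3.82, limma adjusted p = 0.028), and without any 1 of the 6 arrays its adjusted p lay between 0.052 and 0.14. The study, with these arrays for pTreg cells, also has Prdm1 among genes higher in both effector and pTreg cells lacking Blimp1. The sources do not place the Prdm1 probe relative to the deleted part, and these values therefore check nothing about the deletion. Foxp3, on which the cells were sorted, lay at 433, 165 and 216 in CKO replicates and at 480, 212 and 141 in Ctrl replicates.

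Members of the SOCS family differed in size and direction of change in Blimp1-deficient pTreg cells. Socs2 was 3.79-fold lower in CKO than in Ctrl cells, Socs7, close to background, was 1.60-fold lower, and Socs1 was 1.45-fold higher. Cish, Socs3, Socs4, Socs5 and Socs6 overlapped between the groups. In limma, 0 of the 8 genes passed an adjusted p of 0.05, where 26 genes or 0.271% of all genes did. At an unadjusted p under 0.05 there were 3 members, Socs1, Socs2 and Socs7, and 8.05% of all genes. Socs2 and Socs7 met the thresholds of the methods, both lower in CKO, against 7.43% of all genes in either direction and 4.34% in this one. With the replicate block, Socs2 alone of the 8 passed an adjusted p of 0.05, where 1.85% of all genes did. The groups did not overlap for 3 members, against 13.0% of all genes. Socs2 and Socs7 were lower on every CKO than on any Ctrl array (7.08% of all genes), and Socs1 was higher (5.95%). In all, 6 members were lower and 2 higher in CKO, against 4565 lower and 5024 higher of all 9589 genes. The median log2 fold change was -0.39 over the family and 0.02 over all genes.

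**Figure D1:**
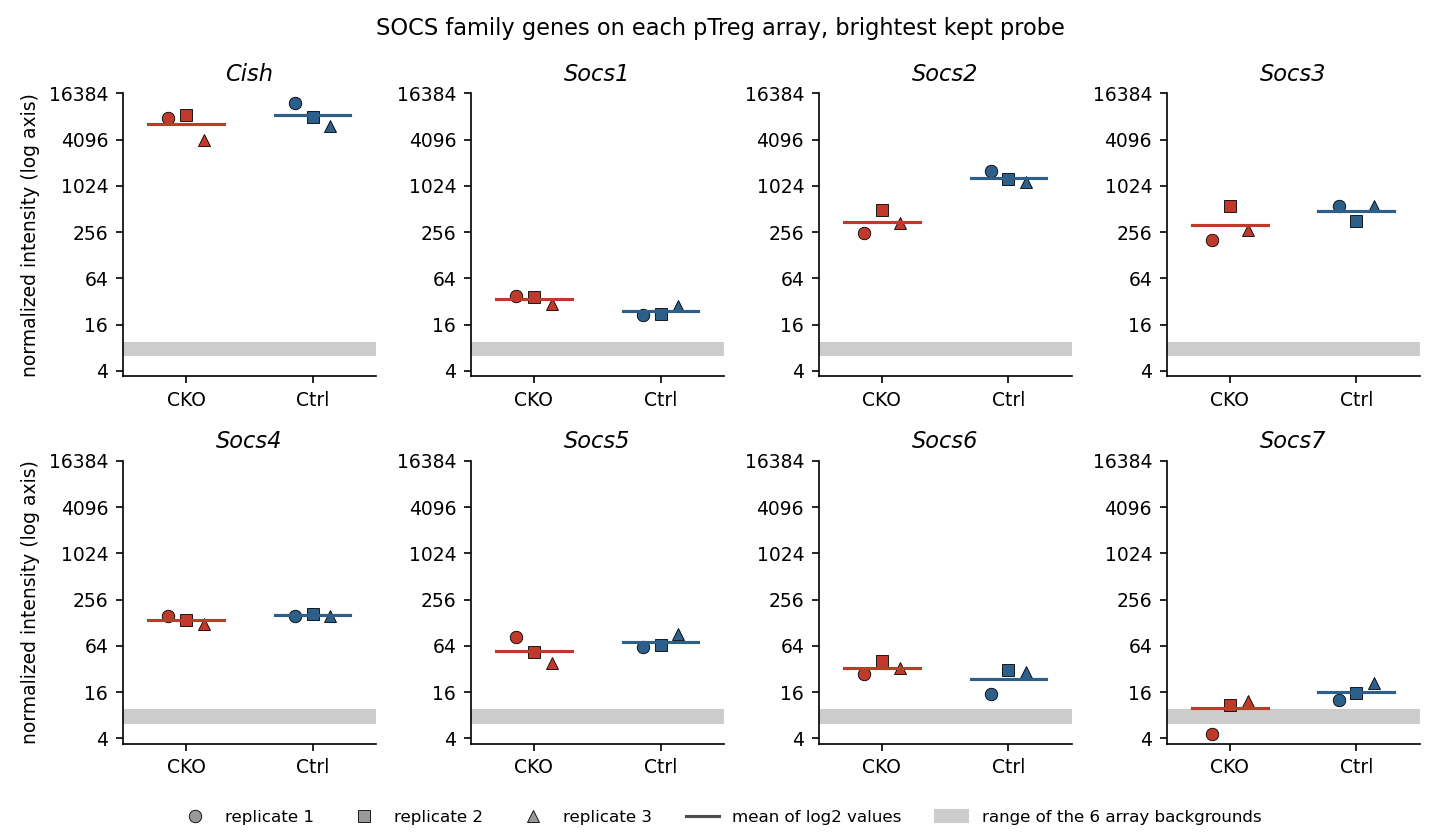
Normalized intensity (log axis) of the brightest kept probe of each SOCS family gene on the 3 CKO and 3 Ctrl arrays, with symbols for the replicates, a line at the mean of log2 values (values below an array's background raised to it) and a grey band for the range of array backgrounds. Socs2 lay between 246 and 503 in CKO and between 1163 and 1580 in Ctrl cells, and Socs7 lay near the band. Levels of different genes come from different probes and have no order.

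Socs2 limits growth hormone signalling and STAT5 activity. Its probe gave 246, 503 and 339 in CKO replicates 1, 2 and 3, against 1580, 1243 and 1163 in Ctrl replicates. The highest CKO array lay below the lowest Ctrl array by more than the whole spread of either group, and all 6 arrays were far above background. The means were 363 ± 130 in CKO and 1329 ± 221 in Ctrl cells (SD, n = 3 each). The log2 fold change was -1.92 (SE 0.31, 95% interval -2.63 to -1.21), and the changes within pairs were -2.68, -1.30 and -1.78. Limma's adjusted p was 0.064, with an unadjusted p of 2.55e-04 that ranked 38 among 9589 genes. Blocking on the replicate number gave an adjusted p of 0.030, so Socs2 fell in that fit, and blocking on the slide gave 0.10. The study drew its pTreg genes from these same arrays, so the direction of Socs2 here is not independent evidence. A second Socs2 probe, designed on another transcript sequence, was above background on no array.

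Some T and Treg cell markers differed between the groups in the same direction as Socs2. All 10 genes of the marker list with a named probe were above background on all 6 arrays, and their summed intensity was 12703 to 15924 in CKO and 21918 to 27979 in Ctrl cells, without overlap. Of the 10 genes, 3 were apart between the groups, all lower in CKO. Of all genes, 13.0% were apart and 7.08% were apart and lower in CKO. The 3 were the Treg-associated Ctla4 (-1.12, limma adjusted p = 0.18, and 0.042 with the replicate block, in which it fell), Ikzf2 (-1.45, limma adjusted p = 0.31) and Tnfrsf18 (-1.23, limma adjusted p = 0.18). The other 7, Foxp3 and the CD3 chains among them, overlapped, and Foxp3 (0.03) and Cd247 (0.09) were not lower in CKO. In bulk samples fewer cells of a type and less RNA per cell cannot be told apart, and the part of these markers in the Socs2 difference was not tested.

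Cish is the other member best known as a STAT5-induced gene in T cells, and its product binds to the activated receptor chain. Its probe gave 7918, 8507 and 4117 in CKO replicates, against 12166, 8147 and 6224 in Ctrl replicates. The groups overlapped, and Cish was lower in CKO in pairs 1 and 3 but not in pair 2. The log2 fold change was -0.38 (SE 0.37, 95% interval -1.24 to 0.47, limma adjusted p = 0.91, and 0.44 with the replicate block). The interval reaches well below 0, and a decrease of the size of the mean was not detectable with these arrays. On chromosome 9, which also carries Thy1, 293 tested genes lie between Cish and Thy1 in RefSeq order.

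Socs3, which binds the shared IL-6 receptor chain gp130 and limits STAT3 signalling, had intensities of 203, 567 and 275 in CKO replicates, against 555, 360 and 558 in Ctrl replicates. The group with the higher value changed between pairs, with log2 differences of -1.45, 0.66 and -1.02. The mean change was -0.60 (SE 0.40, 95% interval -1.53 to 0.32, limma adjusted p = 0.83). Without CKO replicate 2 it was -1.02, and Socs3 then met the thresholds of the methods, at a limma adjusted p of 0.46. Without CKO replicate 1 it was -0.28, and without replicate 1 of both groups -0.18.

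Other measurements also differed between the pairs. The median intensity of 21 genes known as early targets of T cell stimulation was 1627, 2727 and 1415 in CKO replicates. It was 2164, 2700 and 2323 in Ctrl replicates, so lower in CKO in pairs 1 and 3 and nearly equal in pair 2. Gene by gene, 13, 12 and 18 of the 21 were lower in CKO in pairs 1, 2 and 3. Their median log2 changes were -0.22, -0.08 and -0.58, so by this measure pair 3 stood apart rather than pair 2. The summed intensity of markers of myeloid cells, which the hosts keep, was far lower in both samples of replicate 2. Among the markers, Csf1r did not follow this, with 6.90, 15.5 and 20.7 in CKO replicates, against 10.0, 17.6 and 13.8 in Ctrl replicates. Ly6c1 in CKO cells was 158 in replicate 2 and 171 in replicate 3. Of 10 such markers 8 were tested, Itgam and Adgre1 were above background on no array, and the list summed to 12987, 1959 and 22964 in CKO replicates, against 24263, 2668 and 33117 in Ctrl replicates, most of it S100a8 and S100a9. In pairs 1, 2 and 3, 8, 3 and 7 of the 8 markers were lower in CKO, against 4219, 4491 and 5291 of all 9589 genes. Their part in the values of Cish and Socs3 was not tested. Markers of erythroid cells summed to 744, 557 and 1629 in CKO replicates, against 1329, 531 and 1922 in Ctrl replicates. Nearly all of this was Hba-a1, lowest in replicate 2 of each group. Markers of B cells summed to 9.29 to 25.8 in CKO and 10.8 to 14.5 in Ctrl cells, near background. Markers of epithelial cells summed to 22.2 to 42.5 in CKO and 0 to 74.9 in Ctrl cells. Of 6 markers of CD8 T and NK cells, Cd8b1 was above background on all 6 arrays, Eomes on 4 and Klra8 on 3, while Cd8a, Klrb1c and Ncr1 were on none. That list summed to 553 to 947 in CKO and 670 to 1031 in Ctrl cells, nearly all of it Cd8b1.

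Socs1, which inhibits JAK kinases and is the main brake on IFNγ signalling, had intensities of 38.0, 36.5 and 29.5 in CKO replicates, against 21.6, 22.0 and 28.2 in Ctrl replicates. All values were above background, and the groups were apart by little, the lowest CKO and the highest Ctrl value both coming from replicate 3. The log2 fold change was 0.54 (SE 0.23, 95% interval 0.003 to 1.07), with an unadjusted p of 0.049 and a limma adjusted p of 0.62. The change within pairs was 0.81, 0.73 and 0.06.

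Socs7 is known to bind adaptor and insulin receptor substrate proteins. Its probe gave 4.55, 10.9 and 12.3 in CKO replicates, against 12.7, 15.4 and 21.2 in Ctrl replicates. CKO replicate 1 was below background and was raised to it for the test, and the other arrays were at most 21.2, so the probe was dim throughout. The log2 fold change was -0.68 (SE 0.29, 95% interval -1.36 to -0.002, limma adjusted p = 0.62, and 0.14 with the replicate block), and it was lower in CKO in all 3 pairs. A second kept probe of Socs7 was above background on 1 array of each group and had a log2 fold change of -0.17 (SE 0.40), with a 95% interval of -1.09 to 0.75 that includes both 0 and the change of the brighter probe.

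Socs4 and Socs5, which form a subgroup with long N-terminal regions and are known to act on the EGF receptor, showed small differences. Socs4 had intensities of 158, 138 and 123 in CKO replicates, against 154, 169 and 156 in Ctrl replicates, a log2 fold change of -0.20 (SE 0.21). Its second probe gave -0.08 (SE 0.24). Both probes place the change within the spread of the replicates. Socs5 had 82.5, 52.4 and 38.3 in CKO replicates, against 62.6, 66.5 and 90.9 in Ctrl replicates. It was higher in CKO in pair 1 and lower in pairs 2 and 3, with a mean log2 fold change of -0.40 (SE 0.32). Socs6, the relative of Socs7, had 27.7, 40.2 and 33.0 in CKO replicates, against 15.2, 31.0 and 29.1 in Ctrl replicates. Every pair was higher in CKO (0.87, 0.38 and 0.18), the groups overlapped, and the mean was 0.48 (SE 0.33). Limma's adjusted p was 0.93 for Socs4, 0.89 for Socs5 and 0.85 for Socs6. Beside these, 1 probe of Socs5 and 3 of Socs6 were above background on no array.

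**Figure D2:**
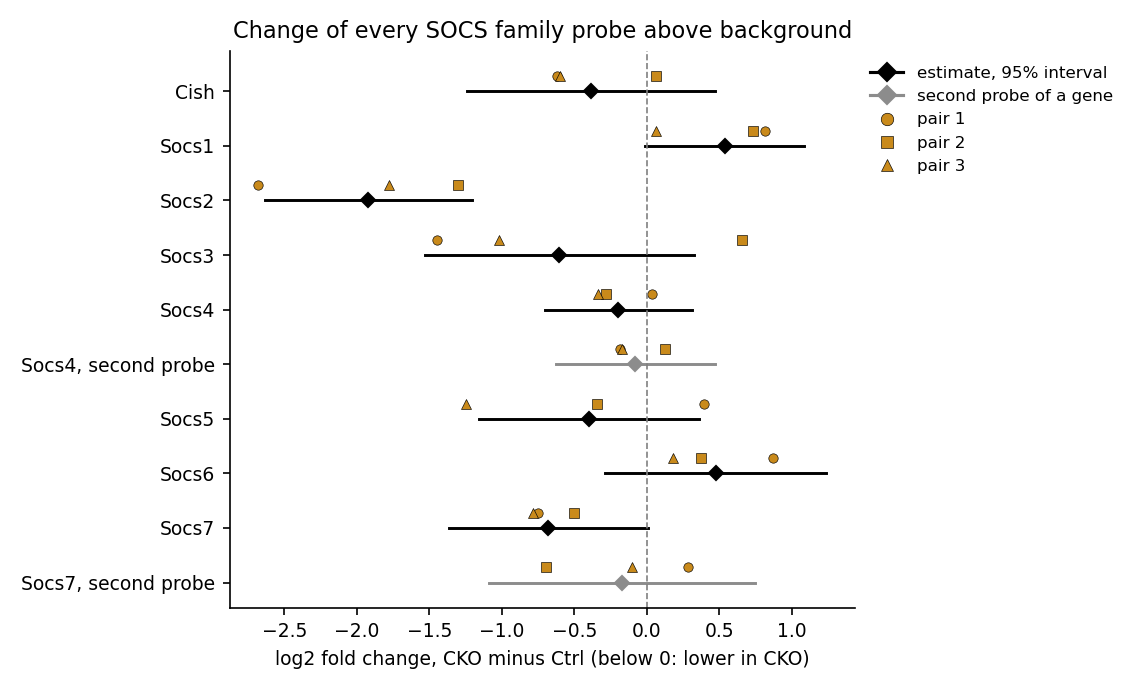
Log2 fold change, CKO minus Ctrl, of the 10 SOCS family probes above background, with the 95% interval of the limma fit over all 17290 kept probes (diamonds, grey for a second probe of a gene) and the change within each of the 3 pairs (orange symbols). The interval of Socs2 lies apart from 0, the pairs of Cish, Socs3, Socs4 and Socs5 lie on both sides of 0, and in this fit the intervals of Socs1 and Socs7 reach 0.

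Whether Socs2 differed from the other members was tested on the difference itself, the log2 value of Socs2 minus that of another member on each array. This difference was lower in CKO for all 7 partners, by -1.24 against Socs7, -1.32 against Socs3, -1.52 against Socs5, -1.54 against Cish, -1.72 against Socs4, -2.40 against Socs6 and -2.46 against Socs1. CKO and Ctrl arrays did not overlap in any of the 7. Socs2 has the largest difference of the family on these same arrays, and its values enter all 7 comparisons. These are therefore not 7 separate results. The exact permutation test, two-sided, gave p = 0.10 for each, and 0.10 after adjustment over the 7 pairs, which is the smallest value that 3 against 3 arrays allow.

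**Figure D3:**
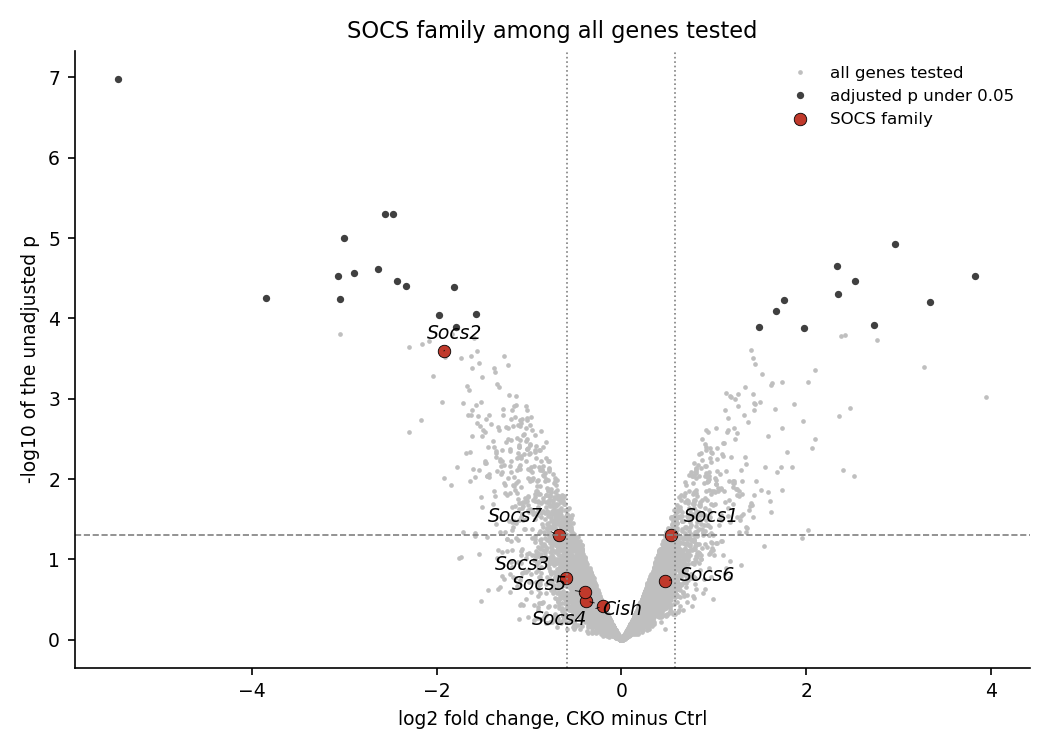
Log2 fold change, CKO minus Ctrl (horizontal), and -log10 of the unadjusted p from limma (vertical) of 9589 genes, with the 8 SOCS family genes in red and the 26 genes at an adjusted p under 0.05 in dark grey. The dashed line marks an unadjusted p of 0.05 and the dotted lines a 1.5-fold change. Socs2 lies just below the dark grey genes, at rank 38, and the other members lie among the mass of genes.

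Across the 6 arrays, the profile of Socs2 was compared with that of every other gene by Pearson's r on log2 values, as a description, since the arrays share genotype, pair and slide. The 3 most alike were Serinc3 (r = 0.989), Klhl25 (r = 0.988) and Il10ra (r = 0.987), and the 3 most opposed were Pou2af1 (r = -0.9999), Yipf4 (r = -0.991) and Bcat1 (r = -0.990). Il10ra, the IL-10-binding receptor chain, had intensities of 15.9, 33.0 and 18.3 in CKO replicates, against 194, 122 and 168 in Ctrl replicates. Pou2af1, a transcriptional coactivator known from B cells, had 555, 228 and 382 in CKO replicates, against 54.9, 77.0 and 81.4 in Ctrl replicates. In both genes, as in Socs2, CKO replicate 2 lay nearest to the Ctrl arrays, a likeness that the choice by correlation brings with it. Within the family, Socs2 correlated at 0.74 with Socs3 and with Socs7, at 0.49 with Cish and at -0.85 with Socs1 over the same 6 arrays.

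The family was set beside the rest of its pathway, beginning with ligands and receptors. Among all genes, 0.271% passed an adjusted p of 0.05 and 7.43% met the thresholds of the methods. Of 13 cytokines tested, Il10 fell and none rose. Il10, the regulatory cytokine, had intensities of 128, 99.2 and 106 in CKO replicates, against 5935, 3203 and 5904 in Ctrl replicates (log2 fold change -5.45, limma adjusted p = 0.0010). Lif, a cytokine that signals through gp130, had 1358, 1029 and 719 in CKO replicates, against 66.2, 266 and 63.3 in Ctrl replicates, without overlap (3.27, limma adjusted p = 0.081, and 0.020 with the replicate block). The type 2 cytokines Il13 (-1.54) and Il5 (-1.22) also met the thresholds of the methods, and the list had a median of -0.29. Of 18 receptor chains, Il10ra fell (-2.90, limma adjusted p = 0.028) and none rose. Ifngr1, the ligand-binding chain of the IFNγ receptor, had 87.9, 65.2 and 102.5 in CKO replicates, against 352, 156 and 239 in Ctrl replicates (-1.49, limma adjusted p = 0.18, and 0.031 with the replicate block). Il6st, which encodes gp130, had 36.0, 24.9 and 26.5 in CKO replicates, against 79.2, 112 and 45.2 in Ctrl replicates (-1.36, limma adjusted p = 0.25). The median over the receptor list was -0.46.

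Il10 passed an adjusted p of 0.05 without any 1 of the 6 arrays. Il10ra lost its call without any 1 of them (adjusted p between 0.052 and 0.14), and with the slide as a block its adjusted p was 0.054. On chromosome 9, 28 tested genes lie between Il10ra and Thy1, and the donors differed at Thy1 as given above, and the part of this region in the Il10ra difference was not tested.

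Among the kinases and factors that the family restrains, 0 of 4 JAK kinases and 0 of 5 STAT factors tested passed an adjusted p of 0.05. Over all genes the share was 0.271%, so a count of 0 in lists this short says little. Jak1 had 24.0, 21.3 and 18.8 in CKO replicates, against 25.3, 65.2 and 53.4 in Ctrl replicates (-1.07, limma adjusted p = 0.41), and Jak3, the kinase of the common γ chain, had 190, 201 and 142 in CKO replicates, against 229, 313 and 277 in Ctrl replicates (-0.62, limma adjusted p = 0.52). Both met the thresholds of the methods, as did 7.43% of all genes, and Jak1 was nearly equal in pair 1. Stat4, the factor activated by IL-12, was the STAT gene with the largest difference, with 1525, 1019 and 1024 in CKO replicates, against 440, 449 and 579 in Ctrl replicates, without overlap (1.27, limma adjusted p = 0.14). Stat5a, the factor upstream of Cish and Socs2, had a log2 fold change of -0.01 (SE 0.30), and Stat3 one of -0.44 (SE 0.31). Stat5b was above background on too few arrays to be among the 9589 genes.

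The machinery and the relatives of the family gave no call. Over all genes, 0.271% passed an adjusted p of 0.05 and 7.43% met the thresholds of the methods. A count of 0 in a list this short therefore says little. Of 7 partners of the SOCS box (elongins, cullins and their helpers), 0 passed an adjusted p of 0.05 and 0 met the thresholds of the methods, with a median of 0.19. Of 12 other proteins with a SOCS box, 0 passed, and Asb13 (0.86) and Spsb1 (1.30) met the thresholds of the methods, with a median of -0.06. Of 12 inhibitors of the pathway outside the family, 0 passed, and Pias2, which binds STAT factors, met the thresholds of the methods (0.91, limma adjusted p = 0.22), with a median of -0.12.

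Of 15 genes known to be induced through STAT5, 1 rose and 0 fell, and the median was -0.30. For this and the next lists, the share of all genes was 0.271% at an adjusted p of 0.05. It was 1.85% with the replicate block and 7.43% at the thresholds of the methods. In pairs 1, 2 and 3, 10, 8 and 9 of the 15 were lower in CKO, against 4219, 4491 and 5291 of all 9589 genes. Bcl2, a survival factor, rose, with 153, 144 and 114 in CKO replicates, against 23.8, 33.1 and 16.5 in Ctrl replicates (2.53, limma adjusted p = 0.028, and 0.054 with the slide as a block). Without 1 of the 6 arrays its adjusted p lay between 0.044 and 0.53, under 0.05 without Ctrl replicate 2 and over it without each of the other 5. Lta (1.33) and Pim2 (1.24) met the thresholds of the methods, and with the replicate block Pim2 rose as well (adjusted p = 0.045), from a probe above background on 1 of 3 Ctrl arrays. Of 11 genes induced through STAT3, 0 passed, and Hif1a (1.34), Il17f (1.96) and Bcl3 (-1.48) met the thresholds of the methods. With the replicate block Hif1a rose (adjusted p = 0.031) and Bcl3 fell (adjusted p = 0.029). Of the 21 genes expressed soon after stimulation, 0 passed, and the chemokine genes Xcl1 (1.66), Ccl4 (-0.82) and Ccl3 (-1.36) met the thresholds of the methods, with a median of -0.28. With the replicate block Xcl1 rose (adjusted p = 0.027) and Ccl3 fell (adjusted p = 0.049).

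**Figure D4:**
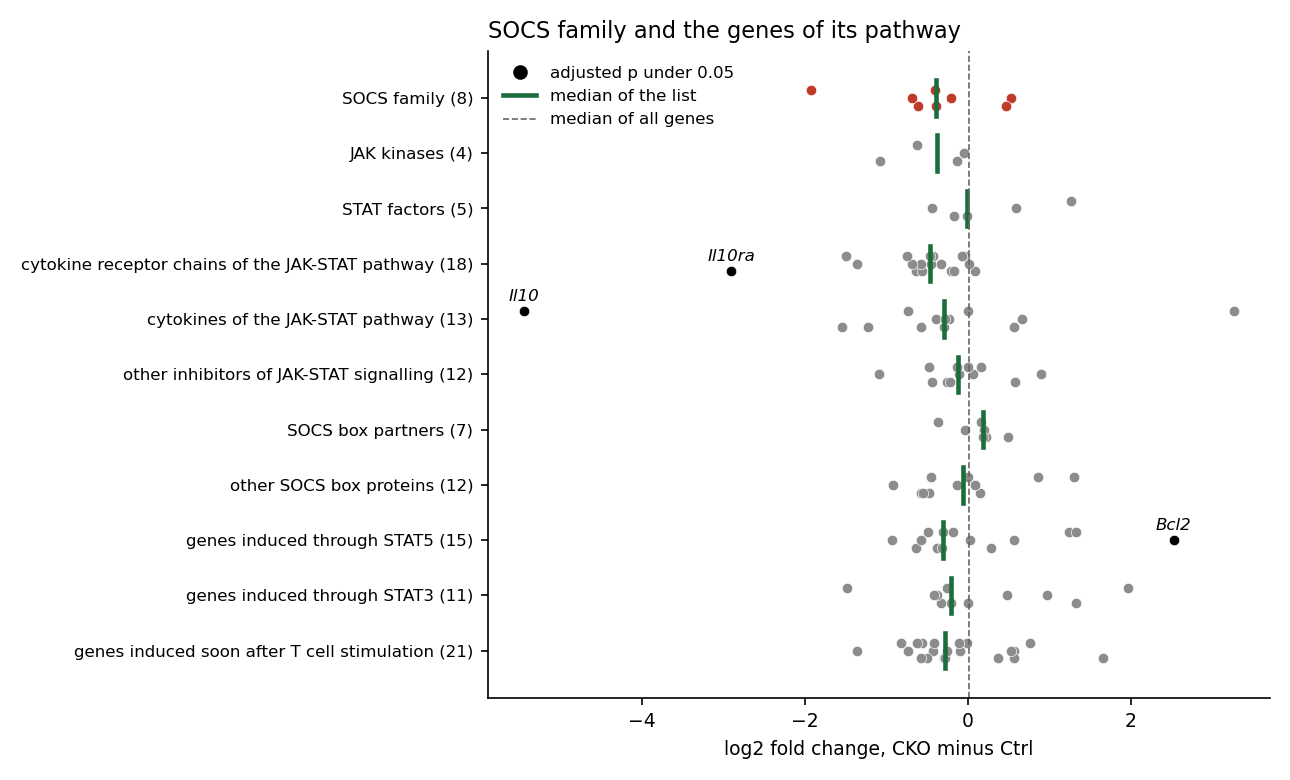
Log2 fold change, CKO minus Ctrl, of the 8 SOCS family genes (red) and of the tested genes of 10 pathway lists (grey, the number of genes in parentheses), with green bars at the median of each list, a dashed line at the median of all genes and black points for genes at an adjusted p under 0.05. The family median is -0.39, Socs2 is its lowest member at -1.92, and Il10, Il10ra and Bcl2 are the black points.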

How the data were processed

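RNA of 3 CKO and 3 Ctrl pTreg samples was measured, grouped by the genotype in the labels, and the study calls them biological replicates. The deposited values are linear intensities on Illumina bead arrays, which the authors exported from Genome Studio after background subtraction and quantile normalization, so that 35.4% to 36.0% of values per array lie below 0. The column medians are 2.84 on slide 1 (replicate 1) and 2.64 to 2.65 on slide 2 (replicates 2 and 3). Sorted values agreed within 0.02 units plus 0.1% for 97.1% to 100.0% of probes between arrays of one slide and for 4.14% to 4.94% between slides, so the columns do not share one distribution. All 6 columns were therefore quantile normalized together. On each array, 1503 probes of olfactory and vomeronasal receptors served as negatives, their 95th percentile was the background, and values under it were set to it before taking log2. Between 32.3% and 38.3% of probes per array were above background. Probes above background on at least 2 arrays were kept, and each gene was given by its brightest kept probe. Detection p-values are not used here. The annotation gives a single gene symbol for 34885 probes, several for 18 and none for 10378, and 34807 symbols were checked by gene identifier against RefSeq on GRCm38.p6.

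The comparison used limma 3.58.1 under R 4.3.3 (lmFit, eBayes, no block, as the methods name none). Probes were fitted separately over all 17290 kept probes. Same-numbered samples are paired: both samples of replicate 2, and both of replicate 3, have one day in the labels, replicate 1 has a slide of its own, and deviations from the group means correlated over genes at 0.51, 0.49 and 0.56 for the same numbers. The steps were tested on simulated data. In all, 18 alternatives were run. The members and the gene lists were chosen with earlier results of these data known, and lists were written from general knowledge of the pathway. Named genes were all members, from each pathway list those at an adjusted p under 0.05 and then by p those that met the thresholds of the methods, up to 4, the 3 most alike and 3 most opposed to Socs2, and Prdm1, Foxp3 and Il10. Stat3, Stat5a, Stat5b and the cell type markers are named beyond this rule, a choice made with their values in view. Some genes of the pathway are not reported here.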

Additional observations from a re-analysis of the deposited data

How the results depend on the processing

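Every alternative left Socs2 lower in CKO, with log2 fold changes between -2.23 and -1.54. Its adjusted p was 0.064, lay between 0.0014 and 0.52 over the alternatives, and passed 0.05 with the replicate number as a block (-1.92, adjusted p = 0.030), a 99th percentile background (-1.92, 0.0497), log2 of the value plus 32 (-1.82, 0.020), no filter on dim probes (-1.92, 0.0014) and an intensity trend in eBayes (-1.92, 0.025). In each of these 5 settings 1 member passed in place of 0, and in the other 13 none did. Members that met the thresholds of the methods numbered 1 with the 99th percentile background, log2 of the value plus 32, the mean of kept probes and the intensity trend, and 1 to 3 when arrays or pairs were left out, Socs2 being among them each time. Genes past an adjusted p of 0.05 numbered 26, against 177 with the replicate block, 16 with the slide as a block, 51 with log2 of the value plus 32, 151 without a filter, and 0 to 10 when arrays or pairs were left out. Genes at the thresholds of the methods numbered 712, against 1154 with the replicate block and 456 with log2 of the value plus 32. Socs5 turned to 0.027 without replicate 3 of both groups, its values without arrays or pairs being -0.80 to 0.027. The other 6 members kept their direction and stayed at an adjusted p over 0.05 in all 18 alternatives, but sizes moved. Without arrays or pairs Cish lay between -0.61 and -0.05 (without CKO replicate 3), Socs6 between 0.15 (without Ctrl replicate 1) and 0.66, Socs3 between -1.23 and -0.18, Socs1 between 0.40 and 0.77, Socs4 between -0.31 and -0.11, and Socs7 between -0.85 and -0.47. Processing made some changes smaller than these ranges. Socs7 was -0.26 with the 99th percentile background, -0.23 with log2 of the value plus 32 and -0.43 with the mean of kept probes. Socs1 was 0.25 with log2 of the value plus 32. The replicate block changed no call of a member other than that of Socs2. Dim probes (Socs7, Socs6, Socs1) lie within a few fold of background, where differences are compressed. The cause of these changes was not tested.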
